A study of Mus musculus with 2 samples.

Results

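The caveolin genes (Cav1, Cav2 and Cav3) and the cavin genes (Cavin1, Cavin2, Cavin3 and Cavin4) were examined for chromatin accessibility in cardiac fibroblasts. Their members are the peaks that the deposited table assigns by gene symbol to 1 of these 7 genes, which gave 16 of 63316 peaks. Of these, 7 belonged to the 3 caveolin genes and 9 to the 4 cavin genes. ATAC-seq measures how open DNA is through a transposase (Tn5) that inserts adapters where it can reach, so a more open region gives more reads.

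Primary cardiac fibroblasts from mouse heart were profiled in 2 libraries, both from cells given TGF-β, the cytokine that turns fibroblasts into contractile myofibroblasts. The control library is labelled NC, and the legend of the experiment names its treatment as scrambled siRNA. The other library, siPiezo2, came from cells transfected with siRNA against Piezo2, a mechanosensitive ion channel. For both, the legend puts the transfection first and then 24 h of TGF-β, given at 5 ng/ml. The methods place the mouse strains of the study on a C57BL/6 J background without saying which mice gave these cells, whose age and number are not given in the sources used here, and the series' own design text describes a Tet3 knockout with Cre, which neither label mentions. The methods describe minced tissue and another kit than the labels do. ATAC-seq does not measure Piezo2 RNA, so the knockdown itself was not checked. With 1 library per condition, no difference has a replicate check, no test was made, and the intervals below cover counting error only unless stated. The question was how accessibility at these genes differed after Piezo2 knockdown.

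Caveolae are small flask-shaped pits of the plasma membrane. Caveolins are hairpin membrane proteins that form the caveolar bulb, and cavins are cytosolic proteins that coat and stabilise it. Caveolae flatten when the membrane is stretched, which buffers membrane tension, and they are abundant in fibroblasts, endothelial cells, adipocytes and muscle. Cav1, Cav2, Cavin1, Cavin2 and Cavin3 are expressed in many tissues, whereas Cav3 and Cavin4 are known as the muscle forms.

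The stretches before the gene start are shown for 4 genes whose RefSeq start is also the start of the transcript used in the table, and at which a peak lay over most of the stretch. Cav1 and Cavin4 had the lowest log2 ratios among the peaks at gene starts and Cavin2 the highest, and Cav2 lies next to Cav1 on chromosome 6. The sequences are the 250 bases before the start in RefSeq, build GRCm38.p6, 5′ to 3′ on the + strand. They lie at chr6:17306085-17306334 for Cav1, chr6:17280935-17281184 for Cav2, chr1:51288876-51289125 for Cavin2 and chr4:48663264-48663513 for Cavin4. The peaks are in another build (GRCm39), so peaks and sequences are related only by their distance from the start. Capitals mark matches of the motifs searched that lie wholly within the stretch, so GC boxes that cross the start of Cav1 and of Cav2 are not marked.
Cav1: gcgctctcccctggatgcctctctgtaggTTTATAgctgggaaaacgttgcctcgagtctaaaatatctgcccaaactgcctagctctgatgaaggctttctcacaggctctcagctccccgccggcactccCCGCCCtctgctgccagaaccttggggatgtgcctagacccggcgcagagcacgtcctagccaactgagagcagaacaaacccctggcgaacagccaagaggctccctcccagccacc
Cav2: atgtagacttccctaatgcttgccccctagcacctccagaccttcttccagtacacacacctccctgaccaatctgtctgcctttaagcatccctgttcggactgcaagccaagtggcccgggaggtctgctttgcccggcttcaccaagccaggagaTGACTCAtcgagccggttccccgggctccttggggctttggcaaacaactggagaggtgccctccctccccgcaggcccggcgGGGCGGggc
Cavin2: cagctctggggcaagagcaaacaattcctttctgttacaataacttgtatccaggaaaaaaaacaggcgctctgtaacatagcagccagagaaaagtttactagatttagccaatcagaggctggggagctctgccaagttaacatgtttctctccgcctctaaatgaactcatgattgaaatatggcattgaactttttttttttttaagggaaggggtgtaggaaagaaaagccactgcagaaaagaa
Cavin4: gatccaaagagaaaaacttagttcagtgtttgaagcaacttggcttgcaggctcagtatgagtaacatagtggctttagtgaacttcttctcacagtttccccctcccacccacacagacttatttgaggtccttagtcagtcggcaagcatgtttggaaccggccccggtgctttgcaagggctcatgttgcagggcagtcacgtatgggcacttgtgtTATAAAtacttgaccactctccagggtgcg

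The promoter table held 6 of the 7 genes, and Cavin3 was not among them. Each window covered 250 bases before and 50 bases after the start, and both strands were searched for TEAD (GGAATG), AP-1 (TGANTCA), GC box (GGGCGG), SMAD box (GTCTAGAC) and TATA box (TATAAA) letters and for the CArG box bound by SRF. Matches of different motifs were allowed to overlap. The TEAD letters, bound by the partners of YAP and TAZ, were present in the Cavin1 window, at position -247 from the RefSeq start, and in the Cav3 window, at position 19, against 14.7% of all 32851 promoter windows. The RefSeq start of Cavin1 lies 270 bases into the transcript used for its peaks, so this Cavin1 window lies within that transcript. The AP-1 letters were present in Cav2 only, at position -92 (7.81% of all windows). GC boxes were present in Cav1, Cav2 and Cavin1 (35.7% of all windows), and TATA box letters at position -30 from the start of Cavin4 and, on the other strand, at -221 from that of Cav1 (13.6%). No window of the 6 genes held the CArG box (1.63% of all windows) or the SMAD box (0.213%), and that of Cavin2 held none of the motifs. The Cavin2 stretch had a GC content of 40.4%, against a median of 52.4% over all promoters, and that of Cavin4 had 48.8%, Cav2 62.0% and the Cav1 stretch shown 59.6%. These matches describe the letters only.

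The 16 peaks ranged from weak to strong. A median caveolin or cavin peak held 90.5 reads in NC and 50 in siPiezo2 in its window of 2000 bp, against 58 and 36 over all peaks. Of the 16 peaks, 9 (56.2%) had a transcription start site (TSS) within 1 kb, against 23.4% of all peaks. Over the whole table, the median of the mean density of both libraries was 33.0 at peaks near a TSS and 21.4 elsewhere. In all, 6 peaks had been called by the peak caller in both libraries and 10 in NC only (62.5%, against 64.0% of all peaks), and 0 in siPiezo2 only. Cav3 and Cavin4 had no peak called in both libraries.

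**Figure D1:**
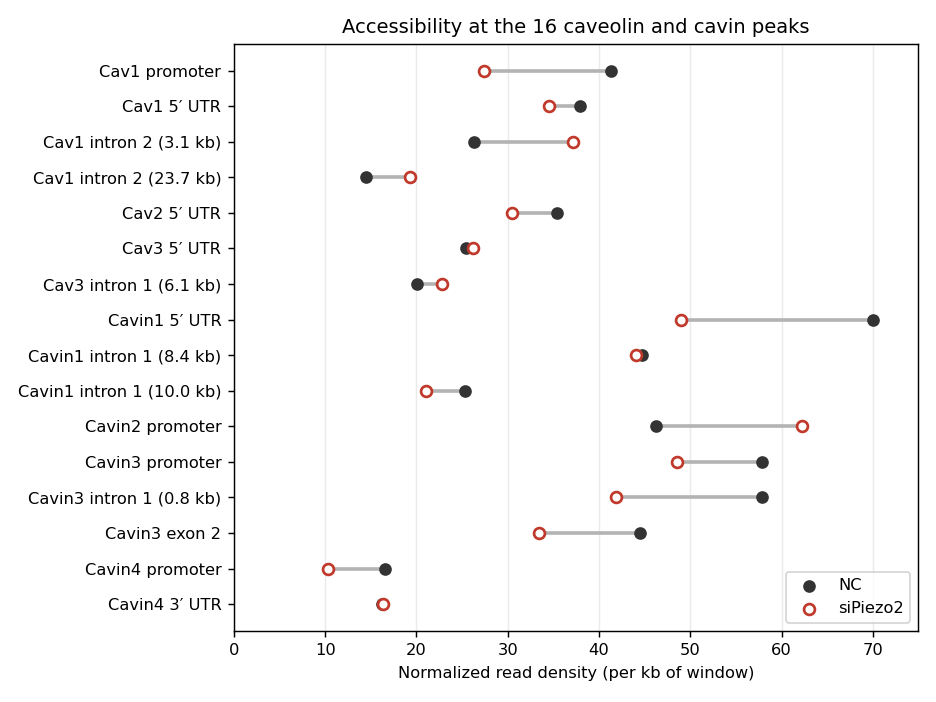
Normalized read density (x axis, per kb of window) at each of the 16 peaks (y axis) in the NC library (filled points) and the siPiezo2 library (open points), with a grey line joining both values of a peak and distances in brackets counted from the start of the transcript. The Cavin1 5′ UTR peak had the highest NC density (70.0), and the siPiezo2 value lies to the right of the NC value at 6 of the 16 peaks, among them the Cavin2 promoter and both intron 2 peaks of Cav1.

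Over the 16 peaks, the log2 ratio of siPiezo2 to NC, log2((siPiezo2 + 1)/(NC + 1)) of the authors' normalized densities, had a median of -0.17, against -0.13 over all peaks. It was below 0 at 10 of 16 (62.5%), against 63.7% of all peaks. With the thresholds below 0.66 and above 1.5 of NC, 1 member peak was lower (13.5% of all peaks were) and 0 were higher (3.21% of all peaks). The counting interval lay below 0 at 3 peaks (11.4% of all peaks) and above 0 at 1 (3.63% of all peaks). With 16 peaks these numbers are close to those of the whole table. Restricted to the 11 members with separate windows, their median was 0.011, against -0.13 for all peaks under the same restriction. Where windows overlapped, this restriction kept the first peak by coordinate, and every member peak it left out was below 0. Among those left out were the start peaks of Cavin1 and Cavin3, which lie on the - strand. At peaks called in both libraries the spread of the log2 ratios was 2.04 times the variance of counting error, and with intervals widened for it 0 of the 16 left out 0, against 2533 of all 63316 peaks below 0 and 789 (1.25%) above.

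Cav1 (ENSMUSG00000007655) encodes caveolin-1, the main structural protein of caveolae outside striated muscle. It had 4 peaks on chromosome 6, with log2 ratios on both sides of 0. At the promoter peak, from 17305949 to 17306312 at positions -385 to -22 from the start, 102 reads were found in NC and 43 in siPiezo2. Its density of 41.3 in NC and of 27.4 in siPiezo2 gave a log2 ratio of -0.58 (-1.13 to -0.049, a 95% Clopper-Pearson interval, as below). At 0.671 of NC it lay just outside the lower threshold. A second Cav1 transcript begins at 17307639. The peak between 17307496 and 17307876, over the 5′ UTR of that transcript, had densities of 37.9 and 34.5 (94 and 54 reads) and a log2 ratio of -0.13 (-0.64 to 0.36).
Both peaks in intron 2 of Cav1 were on the other side of 0. The peak from 17309333 to 17309592, with its centre 3.13 kb into the gene, was called in both libraries and had densities of 26.3 in NC and 37.1 in siPiezo2 (64 and 59 reads). Its log2 ratio was 0.48 (-0.052 to 1.02), higher than 94.7% of all peaks. The peak from 17329902 to 17330135, at 23.7 kb, was weak, with 33 and 32 reads and a log2 ratio of 0.39 (-0.36 to 1.14). The intron peak at 3.13 kb exceeded the promoter peak by 1.06 on the log2 scale (exact conditional interval 0.29 to 1.83), and the one at 23.7 kb by 0.96 (0.032 to 1.90). Widened for the extra spread, both intervals included 0 (-0.039 to 2.16 and -0.37 to 2.30). In all 8 pairs of peaks of the same member gene with separate windows were compared, and these were the 2 whose interval left out 0, against 13.4% of 112109 such pairs over all genes. Summed over the 4 peaks, Cav1 was nearly level, with densities of 120.0 and 118.3 and a log2 ratio of -0.020 (-0.29 to 0.25). Some of its windows overlap, so this interval is too narrow. With the 4 other scalings tried the ratio lay above 0 (0.067 to 0.12), while the median over all genes also rose, from -0.093 to between -0.0076 and 0.046.

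Cav2 (ENSMUSG00000000058) encodes caveolin-2, which assembles with caveolin-1 and depends on it for its place in the membrane. Its single peak, from 17280971 to 17281528 on chromosome 6, spanned the start and the 5′ UTR and was called in both libraries. It held 87 reads in NC and 48 in siPiezo2, with densities of 35.4 and 30.5 and a log2 ratio of -0.21 (-0.75 to 0.31). The difference was not detectable at this depth.

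Cav3 (ENSMUSG00000062694) encodes caveolin-3 of skeletal and cardiac muscle. It had a peak at its start, from 112436344 to 112436604 on chromosome 6, with 61 and 42 reads, densities of 25.5 and 26.2 and a log2 ratio of 0.038 (-0.57 to 0.63). A second peak in intron 1, from 112442486 to 112442686, had 47 and 37 reads, densities of 20.05 and 22.7 and a log2 ratio of 0.17 (-0.49 to 0.83). The Cav3 values of the libraries were thus close, but both intervals reach past the higher threshold.

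Cavin1 (ENSMUSG00000004044) encodes the cavin without which caveolae do not form. It lies on the - strand of chromosome 11 and had the most open start of the 7 genes in NC. The peak over its 5′ UTR, from 100861284 to 100861761, was called in both libraries and held 182 reads in NC and 74 in siPiezo2. Its density was 70.0 in NC and 49.0 in siPiezo2, a log2 ratio of -0.51 (-0.92 to -0.11), and the widened interval reached from -1.06 to 0.052. The window of this peak shares 1142 bases with that of a peak at the start of Gm57383, a gene on the opposite strand, which had a log2 ratio of -0.39, so their reads are not separate measurements. Deeper in the gene, in intron 1, the peak from 100853150 to 100853548 had densities of 44.7 and 44.0 and a log2 ratio of -0.021 (-0.48 to 0.43). The last peak, between 100851579 and 100851803, had densities of 25.3 and 21.1 (60 and 34 reads) and a log2 ratio of -0.25 (-0.90 to 0.38). The windows of these intron peaks share 342 bases. The 5′ UTR peak and the intron peak at 8.36 kb differed by -0.48 (-1.10 to 0.13), which counting error can give.

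Cavin2 (ENSMUSG00000045954) encodes a cavin that promotes membrane curvature. Its promoter peak was the only one at a gene start, other than that of Cav3, with a higher density in siPiezo2. The peak spans 51327897 to 51328573 on chromosome 1, was called in both libraries and was the widest of the 16, at 676 bp. It held 119 reads in NC and 95 in siPiezo2, which at the lower read number of the siPiezo2 library gave densities of 46.3 and 62.3, 1.34 times NC. The log2 ratio was 0.42 (0.016 to 0.82), higher than 92.8% of all peaks, and the widened interval was -0.14 to 0.98. It was set against the start peak of each other gene. It exceeded that of Cav1 by 0.99 on the log2 scale (0.32 to 1.68) and that of Cavin1 by 0.92 (0.35 to 1.504), and both widened intervals stayed above 0 (0.028 to 1.97 and 0.10 to 1.75). It exceeded Cavin4 by 1.05 (0.085 to 2.06) and Cavin3 by 0.67 (0.082 to 1.26), with widened intervals that included 0. The differences from Cav2 (0.63, -0.041 to 1.31) and Cav3 (0.38, -0.34 to 1.11) were within counting error. These 6 comparisons followed from the position of Cavin2 at the end of the order and carry no test.

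Cavin3 (ENSMUSG00000037060) encodes a cavin that binds protein kinase C delta and links caveolae to signalling. It is a short gene on the - strand of chromosome 7, and its 3 peaks together spanned less than the 2000 bp of a window, so that their reads overlap. All 3 were lower in siPiezo2. The promoter peak, from 105131348 to 105132004, had 149 and 74 reads, densities of 57.9 and 48.6 and a log2 ratio of -0.25 (-0.67 to 0.16). The intron 1 peak, from 105130586 to 105130835, had densities of 57.9 and 41.8 (148 and 64 reads), which is a log2 ratio of -0.46 (-0.91 to -0.026). The exon 2 peak, from 105130177 to 105130377, had densities of 44.4 and 33.4 (111 and 52 reads), which is a log2 ratio of -0.40 (-0.91 to 0.086). The windows of the intron and exon peaks share 1567 bases, and those of the intron and promoter peaks 1034.

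Cavin4 (ENSMUSG00000028348) encodes the cavin of cardiac and skeletal muscle, also found at the Z disc. Its promoter peak, from 48663274 to 48663505 on chromosome 4, was among the weakest of the table, with a mean density above only 5.79% of all peaks. It held 37 reads in NC and 17 in siPiezo2, with densities of 16.6 and 10.3 and a log2 ratio of -0.63 (-1.55 to 0.23). This was the lowest ratio of the 16 and the only one past a threshold, at 0.645 of NC, but its interval included 0. No member peak was past the lower threshold with any of the 4 other scalings tried. These scalings also cut the share of lower peaks over the whole table, from 13.5% to between 7.74% and 9.97%. A peak in the 3′ UTR, from 48672862 to 48673062, had 37 and 27 reads, densities of 16.2 and 16.4 and a log2 ratio of 0.011 (-0.76 to 0.77).

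**Figure D2:**
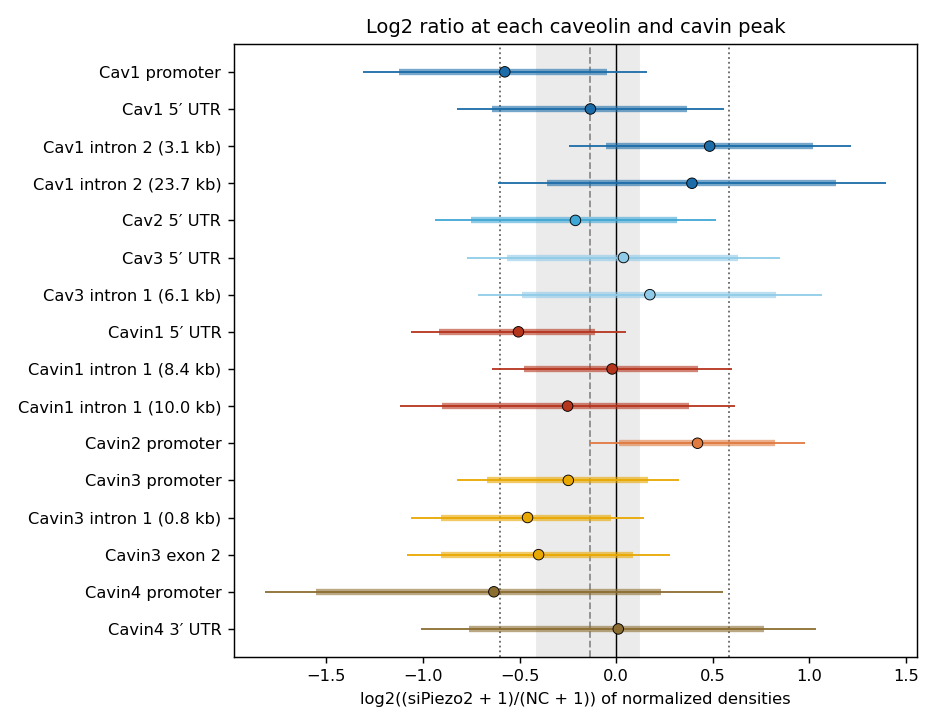
Log2 ratio of siPiezo2 to NC (x axis) at each of the 16 peaks (y axis), coloured by gene, with thick lines for 95% counting intervals and thin lines for intervals widened for the extra spread at peaks called in both libraries. The grey band runs from the lower to the upper quartile of all peaks, the dashed line is their median (-0.13), and the dotted lines mark 0.66 and 1.5 of NC. The point of the Cavin4 promoter (-0.63) is the only one beyond a dotted line, and every thin line crosses 0.

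By position, the 9 peaks within 1 kb of a TSS had a median log2 ratio of -0.25 (range -0.63 to 0.42), and 7 of them were below 0. The 7 peaks further away had a median of 0.011 (range -0.40 to 0.48), and 3 were below 0. These ranges overlap over most of their length, with 4 of the 9 near peaks below the lowest of the others, and several of the peaks of Cav1, Cavin1 and Cavin3 share reads. Over the whole table the median was -0.042 within 1 kb of a TSS, with 55.5% of peaks below 0, and -0.17 elsewhere, with 66.2% below 0. By family, the 7 caveolin peaks had a median of 0.038 (range -0.58 to 0.48) and the 9 cavin peaks of -0.25 (range -0.63 to 0.42), so the ranges overlap over nearly their whole length. The 4 peaks of the muscle forms Cav3 and Cavin4 had a median of 0.024 and densities of at most 25.5 in NC. The 12 peaks of the other 5 genes had a median of -0.23 and NC densities of up to 70.0.

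**Figure D3:**
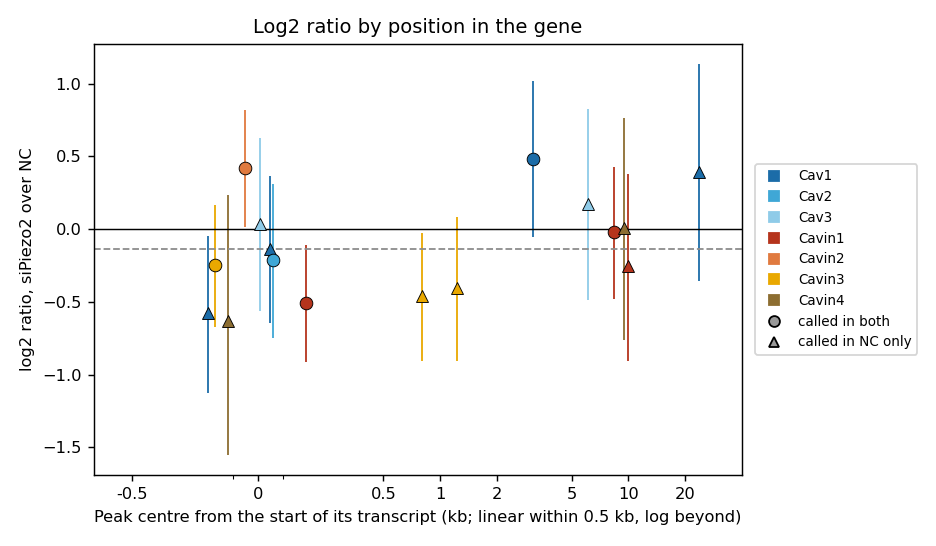
Log2 ratio of siPiezo2 to NC (y axis) against the distance of the peak centre from the start of its transcript (x axis, in kb, linear within 0.5 kb and log beyond), with 95% counting intervals. Colours mark genes, circles mark peaks called in both libraries, triangles those called in NC only, and the dashed line is the median of all peaks. Of the 9 peaks at gene starts or within 1 kb of one, 7 lie below 0 (55.5% of all such peaks do), while Cavin2 (0.42) and the start of Cav3 (0.038) lie above it.

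The level at the gene start was compared between genes in normalized read density, which is per kb of a window of the same length at every peak. In NC the order from the highest was Cavin1 (70.0), Cavin3 (57.9), Cavin2 (46.3), Cav1 (41.3), Cav2 (35.4), Cav3 (25.5) and Cavin4 (16.6). Each of these overlapped the next within the exact Poisson intervals of its reads. Cavin1 stood above 93.0% of all peaks within 1 kb of a TSS and Cavin4 above 4.54%. In siPiezo2 the order was Cavin2 (62.3), Cavin1 (49.0), Cavin3 (48.6), Cav2 (30.5), Cav1 (27.4), Cav3 (26.2) and Cavin4 (10.3). Neighbours again overlapped, except that Cavin4 (17 reads) lay below Cav3 (42 reads). Cavin2 thus stood below Cavin1 and Cavin3 in NC and above both in siPiezo2, though its interval overlapped that of Cavin3 in both libraries. The intervals of Cavin2 and Cavin1 did not overlap in NC (38.3 to 55.4 and 60.2 to 80.9) and overlapped in siPiezo2 (50.4 to 76.1 and 38.5 to 61.5). The muscle forms stood last in both libraries.

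With densities summed over all peaks of a gene, the 7 genes had log2 ratios from -0.37 to 0.42 and a median of -0.21, against -0.093 over all 16934 genes with a peak. No member gene was past either threshold, and over all genes 6.21% were lower and 1.54% higher. The summed counting interval lay below 0 for Cavin3 and Cavin1 (15.2% of all genes) and above 0 for Cavin2 (4.37% of all genes). Cavin3 had the lowest value, -0.37 (408 and 190 reads, -0.62 to -0.12). Because its windows overlap, this interval is too narrow, and from its 1 separate window it was -0.40 (-0.91 to 0.086), which includes 0. Cavin1 followed at -0.29 (355 and 176 reads, -0.56 to -0.028), and as its intron windows overlap, this interval is also too narrow. Its 1 separate window, that of the weak peak at 10.0 kb in intron 1, had -0.25 (-0.90 to 0.38). The 5′ UTR peak of Cavin1 was left out there because its window overlaps that of Gm57383, so this value is no check on the sum. Cavin4 had -0.29 (-0.86 to 0.27), Cav2 -0.21, Cav1 -0.020, Cav3 0.10 (-0.34 to 0.53) and Cavin2, with its single peak, 0.42. No 2 neighbours in this order differed beyond counting error. Its ends, Cavin2 and Cavin3, differed by 0.79 (0.31 to 1.27, widened 0.10 to 1.47). This pair was picked as the extremes, the overlap of the Cavin3 windows makes its intervals too narrow, and it carries no test.

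A further 17 peaks had the TSS of a member as their nearest one but carry no member's symbol, since they lie between genes or in introns of Gm15581 or 9330175M20Rik. They were looked at after the values of the 16 were known. Their median log2 ratio was -0.37, against -0.17 for all peaks over 1 kb from a TSS. Past the thresholds 6 of 17 were lower and 1 was higher, against 15.7% and 3.55% of the 48515 peaks over 1 kb from a TSS, and their distances reached from 3626 to 91441 bases. The 2 peaks upstream of Cav2, in an intron of Gm15581, had log2 ratios of -0.61 (-1.69 to 0.39) and 0.37 (-0.49 to 1.23). Upstream of Cavin1, peaks at -3626 and -9214 bases from the start were called in both libraries and had log2 ratios of -0.49 (-1.09 to 0.090) and -0.75 (-1.35 to -0.17). The 4 peaks upstream of Cavin3 were all below 0, from -0.61 to -0.13, as were the 3 downstream of Cavin4, from -0.83 to -0.23. The 6 peaks upstream of Cavin2, in introns of 9330175M20Rik, were on both sides of 0. Lower past the threshold were those at -38588 bases, with -0.93 (-1.89 to -0.042), and at -14023 bases, with -0.73 (-1.71 to 0.18). Those at -23837 and -23073 bases from the Cavin2 start, each called in both libraries, had log2 ratios of 0.43 (-0.027 to 0.88) and 0.33 (-0.12 to 0.79), from windows that overlap, so that they share reads. The one at -45674 bases, with 28 and 40 reads, was called in siPiezo2 only and had 0.91 (0.18 to 1.66).

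Other genes of caveolae were taken from lists chosen with earlier results of these data known. Of 10 genes of the caveolar neck and of membrane shaping, 0 were past the thresholds (6.21% of all genes were lower and 1.54% higher). Their median log2 ratio was -0.27, against -0.093 over all genes, and the interval lay below 0 for 5 (15.2% of all genes) and above 0 for 0 (4.37% of all genes). Intervals of summed genes were not widened for the extra spread and narrow as reads rise, and the shares over all genes were not matched for reads, so these counts do not show an excess. The median of the neck list depended on the choice of peaks, at 0.0068 with peaks called in both libraries (0.0086 over all genes), 0.024 with the promoter class (-0.025 over all genes) and -0.11 with the strongest peak of each gene. With median-of-ratios or trimmed mean scaling it was -0.13, and the median over all genes moved up as well, to 0.043 and 0.046. The EHD ATPases form a ring around the neck. Ehd2, the member most tied to caveolae, had -0.45 over 7 peaks (918 and 407 reads, -0.62 to -0.28), or -0.33 (-0.53 to -0.12) with separate windows. Ehd3 had the lowest value, -0.50 (-0.93 to -0.074), and Ehd1 the highest, 0.068 (-0.12 to 0.25). Of the pacsins, BAR domain proteins that bend membrane, Pacsin2 had -0.23 (-0.38 to -0.077). Of the dynamins, GTPases that cut membrane necks, Dnm3 had -0.34 over 23 peaks (-0.46 to -0.22) and Dnm2 0.016 (-0.16 to 0.19).
The flotillins, scaffold proteins of other membrane rafts, had -0.14 (Flot1) and -0.023 (Flot2), both with intervals that included 0. Of 11 signalling and cytoskeletal partners, 10 had a peak, Cd36 being without one, and 0 were past the thresholds. Their median was 0.028, with Flna, which ties caveolae to actin, lowest at -0.27 (-0.59 to 0.043) and Tgfbr1, the type I TGF-β receptor, highest at 0.29 (0.032 to 0.55). The interval lay below 0 for 3 of the 10 (15.2% of all genes), Ror1 at -0.27 (-0.40 to -0.15), Abl1 at -0.21 (-0.37 to -0.041) and Prkca at -0.16 (-0.31 to -0.010), and above 0 for Tgfbr1 alone (4.37% of all genes). The 69 genes besides the 7 members that the table's own annotation places in caveolae, a list chosen after seeing the file that also holds genes of the lists above such as Ehd2, Flot1 and Tgfbr1, had a median of -0.096, and 43 (62.3%) were below 0, against 62.6% of all genes. The highest was Lrp8 at 0.54 (0.26 to 0.82), and 0 were past the higher threshold.

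**Figure D4:**
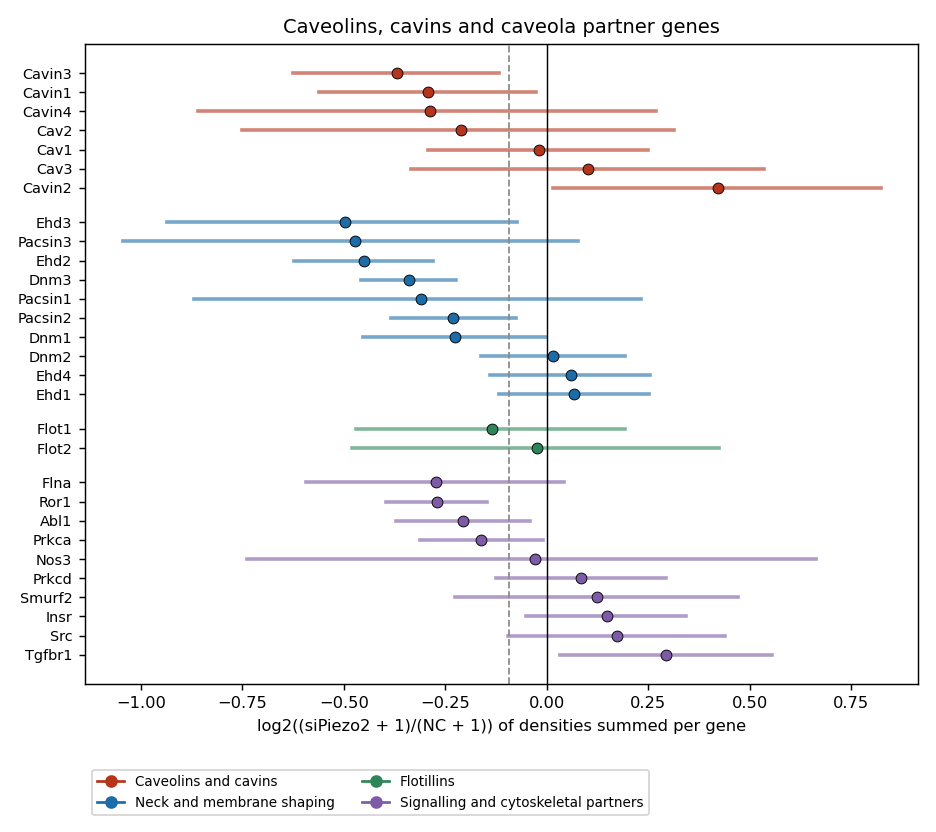
Log2 ratio of densities summed per gene (x axis) for the 7 caveolin and cavin genes and the 22 partner genes with a peak (y axis), with 95% counting intervals and colours for the lists. The dashed line is the median of all genes (-0.093). Cavin2 (0.42) has the highest value shown and Ehd3 (-0.50) the lowest.

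The windows of all peaks held 4615335 reads in NC and 2754046 in siPiezo2, a ratio of 0.597, and the authors' normalization left the peaks called in both libraries with a median log2 ratio of 0.0025. Of 10 fibroblast markers, 8 had a peak within 1 kb of their TSS, with summed densities of 391 in NC and 370 in siPiezo2, and Lum and Thy1 had none. Such peaks were found for 1 of 8 cardiomyocyte, 1 of 6 endothelial, 2 of 6 smooth muscle and pericyte and 0 of 6 macrophage markers. The cardiomyocyte sum was 15.4 in NC and 16.9 in siPiezo2, and Myh6, Myh7, Tnnt2 and Tnni3 had no such peak. The part of other cells in the peaks of Cav3 and Cavin4 was not tested.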

How the data were processed

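The 7 genes and the partner and marker lists were chosen with earlier results of these data known. All 7 members and each of their peaks are named. Of the partner lists, genes past 1.5-fold and the lowest and highest are named, except for an item that is not reported here, as are Ehd2, Pacsin2, Dnm3, Dnm2, Ror1, Abl1, Prkca and the flotillins, which were picked after their values were seen.

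The submitters' processing notes name BWA 0.7.12, and the methods name Picard for duplicates and MACS2 for peaks. The methods list a shift among the settings of MACS2, and whether the counted reads were shifted for the transposase is not given in the sources used here. The deposited signal columns are read densities per library, which the authors normalized between both libraries by a line through the log2 ratios against mean log2 density (an MA plot), as the column names imply. The table's columns of log2 ratios and p-values are the authors' own comparison and were not used. The processing notes name mm10, but gene starts in the table on chromosomes 1, 7 and 11 are shifted from GRCm38 and were taken as GRCm39, so no sequence was read at peaks.

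Whole reads per window (reads plus 1 before the log) were recovered from both densities, within 0.05 of a whole number for 100% of peaks. Exact binomial (Clopper-Pearson) intervals came from these reads and were moved onto the ratio with its pseudocount of 1, which understates the change of weak peaks. Reads are not separate molecules beyond the authors' removal of duplicates. For the background of pairs, a normal interval was used. Widened intervals multiply the variance by 2.04. Alternatives covered pseudocount, scaling, threshold and choice of peaks. Procedures were tested on simulated data. Scripts ran in Python 3.11.15 with scipy 1.17.1, pandas 2.3.3, numpy 2.4.6 and, for plots, matplotlib 3.10.9.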

Additional observations from a re-analysis of the deposited data

How the results depend on the processing

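No paired analysis was possible because there was 1 library per condition, and no library could be left out. Of 158 values under alternatives, 115 moved by less than the 95% counting error of the summed reads, or by no more than 1.5 times for counts, 42 moved further and 1, Cavin2 without scaling, changed sign with its reported interval leaving out 0. In all, 20 values lay on the other side of 0 from the reported one. The median of all peaks, -0.13, was 0.00 with median-of-ratios, -0.050 with the same total density, 0.0035 with trimmed mean and 0.021 with reads at the same total, and the member median minus it was -0.038 as reported and -0.085 to -0.037 with these 4 scalings, but 0.14 with separate windows and -0.38 with the promoter class. The member median was -0.037 with median-of-ratios and -0.033 with trimmed mean scaling, the neck list -0.13 with each, -0.18 at the same total density and -0.21 with reads at the same total, and the signalling partners 0.16, 0.17, 0.11 and 0.11 in the same order of scalings. In that order the median over all genes was 0.043, 0.046, -0.0076 and 0.030, against -0.093 as reported. The 1 lower peak became 0 with each of these 4 scalings, where 7.74% to 9.97% of all peaks were lower, against 13.5% as reported. It also became 0 with 2-fold, with peaks at or above the median density (11.5% of all such peaks) and with peaks called in both (5.36% of all such peaks). The number higher was 1, 1 and 2 with median-of-ratios, trimmed mean and reads at the same total (6.27%, 6.37% and 8.35% of all peaks). Reads without scaling keep the difference in read number, and gave 10 lower peaks of 16 (60.9% of all peaks), a member median of -0.79, Cav1 at -0.64, Cav2 -0.84, Cav3 -0.45, Cavin1 -1.01, Cavin3 -1.10 and the neck, flotillin and signalling lists at -0.94, -0.71 and -0.63. Cavin2 was then at -0.32, below 0, while all peaks had -0.71. With separate windows the member median was 0.011 (11 peaks), and every member peak left out was below 0. With the promoter class it was -0.41 (4 peaks), Cav1 was at -0.58 and the neck and signalling lists at 0.024 and -0.10. With peaks called in both, Cav1 was at 0.48 and these lists at 0.0068 and 0.12. With the strongest peak of each gene the neck list was at -0.11. By nearest gene start, added after seeing the data, 7 of 30 peaks were lower and 1 higher (13.5% and 3.21% of all peaks), and Cavin1 was at -0.57. Reads of 17 to 182 per window limit what single peaks can show.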
